A study of Mus musculus with 386 samples.

Results

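Solute carriers are membrane proteins that move sugars, amino acids, nucleosides, ions, metals and vitamins across the plasma membrane and the membranes of organelles. Genes were taken as members when their symbol started with Slc and a digit and when their summed counts, scaled to the total of a stage as CPM, reached at least 10 CPM at 1 of 3 stages. Of 379 gene rows with such a name, 375 had a count and 46.44% were members. All but 4 members belong to carrier families by name. These 4 are named after a carrier without being one: Slc9a3r1 and Slc9a3r2 (PDZ scaffold proteins), Slc4a1ap (an anion exchanger adaptor) and Slc7a6os. Members were thus selected on the CPM measured here, and their levels and ratios are a description, with no test. Just inside the limit stood Slc38a6, Slc12a5 and Slc25a29 with a highest stage level of 10.2, 10.4 and 10.6 CPM. Just outside stood Slc25a28, Slc6a21 and Slc15a5 with 8.81, 9.04 and 9.18 CPM.

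The libraries are Smart-seq2 transcriptomes of female mouse germ cells, 1 library per cell, from ovaries on embryonic day 17.5 (E17.5) and on postnatal days 2.5 (P2.5) and 6.5 (P6.5). The labels give a stage and a cell type, but no strain, genotype, treatment, animal or litter. Each stage was therefore 1 sample of many cells, with no replicate check. The series title asks about the fate of oocytes in primordial follicles, the resting follicles formed around birth from which oocytes later start to grow.

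A growing oocyte depends on transport. Mouse oocytes use pyruvate more readily than glucose and receive amino acids and nucleosides from granulosa cells through gap junctions as well as through their own carriers. Fully grown mouse oocytes hold glycine, imported by the glycine carrier GLYT1 (Slc6a9), as an osmolyte, and oocytes gather zinc before the meiotic divisions.

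The comparisons used 358 cells, 18 of E17.5, 47 of P6.5 and the remaining 81.8% of P2.5. The 4 E17.5 libraries that the member rule leaves out (numbers 8, 10, 15 and 16) were set aside. In 24 pairs of P2.5 libraries the counts differed little beyond sampling, and each pair was counted as 1 cell. Summed gene counts were 98923694, 2280427479 and 409164954, and single cells had 435560 to 26897828 counts. Germ cell markers (Ddx4, Dazl, Dppa3, Mael, Taf4b, Sycp3) summed to 3860, 4019 and 5175 CPM and were seen in every cell. Erythroid transcripts were seen in 18, 26 and 0 cells and summed to 1924, 38.9 and 1.94 CPM. Transcripts of the granulosa, stroma, endothelium, immune or surface epithelium lists were seen in 12, 26 and 2 cells. Their part in the results on E17.5 was not tested, but counts without those cells are given, with 6 E17.5 cells left.

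Members took 0.782%, 0.818% and 0.912% of all gene counts at the 3 stages, in the order of age. At least 10 CPM was reached by 78.4%, 76.7% and 78.4% of members, and 57.95% reached it at every stage. Another 25 reached it only at E17.5, 6 only at P2.5 and 12 only at P6.5. A member that passed at 1 stage alone was bound to be lower elsewhere, and counts by class and family below include such members. The median gene count per spike-in count was 76.5, 465 and 3203 at the 3 stages. Read per spike-in count, a scale that assumes an equal amount of spike-in in each cell, 81.2% of members were higher by 2-fold or more at P2.5 than at E17.5, and 98.3% at P6.5 than at P2.5. The shares of all genes of at least 10 CPM were 85.2% and 97.4% on that scale. The words higher and lower below refer to a gene's share of the cell's own gene counts, on which the median of all genes moved by 0.01 and -0.17 (log2), against 2.50 and 2.72 per spike-in count.

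At P2.5, 52 members were at least 2-fold higher than at E17.5 (29.55%), 46 were at least 2-fold lower (26.1%) and 78 were neither, after adding 0.5 CPM to both stages. Among all 10867 genes that reached 10 CPM at a stage, 24.3% were higher and 23% lower. The split was 75 higher and 33 lower with TMM scaling, against 33.5% and 16.15% of all genes, and 66 and 38 with median-of-ratios scaling, against 29.2% and 18.8%. These scalings moved the median of all genes by 0.40 and 0.23 (log2). They rescale whole stages, so taking that shift off returns 52 and 46 by arithmetic and is no check. Medians over cells, which are no such rescaling, gave 78 higher and 35 lower (44.3% and 19.9%), against 35.8% and 17.9% of all genes. With the shift of all genes taken off, that split was 69 and 45. Set against P2.5, P6.5 had 22 members higher by 2-fold or more (12.5%) and 14 lower (7.95%), against 5.35% and 7.12% of all genes. With TMM scaling this split was 30 to 13 (17.05% and 7.39%), against 7.3% and 4.1% of all genes. With median-of-ratios scaling it was 31 to 10 (17.6% and 5.68%), against 9.1% and 3.3%. The shifts of all genes were 0.23 and 0.33, and taking them off again returns 22 to 14 by arithmetic. From medians over cells the split was 36 to 13 (20.45% and 7.39%), against 9.2% and 5.3% of all genes. It was 29 to 15 with the shift of all genes taken off. The median log2 ratio of members was 0.20 for P2.5 over E17.5 and 0.03 for P6.5 over P2.5, against 0.01 and -0.17 for all genes. Both comparisons share the P2.5 cells. Ratios given below without 1 library or per spike-in count, and class medians, also have 0.5 CPM added. In 15 members both steps were at least 2-fold higher at the later stage, in 5 both were lower, in 4 a higher step was followed by a lower one and in 4 a lower step by a higher one. Another 70 passed 2-fold at the first step alone, 8 at the second alone and 70 at neither.

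**Figure D1:**
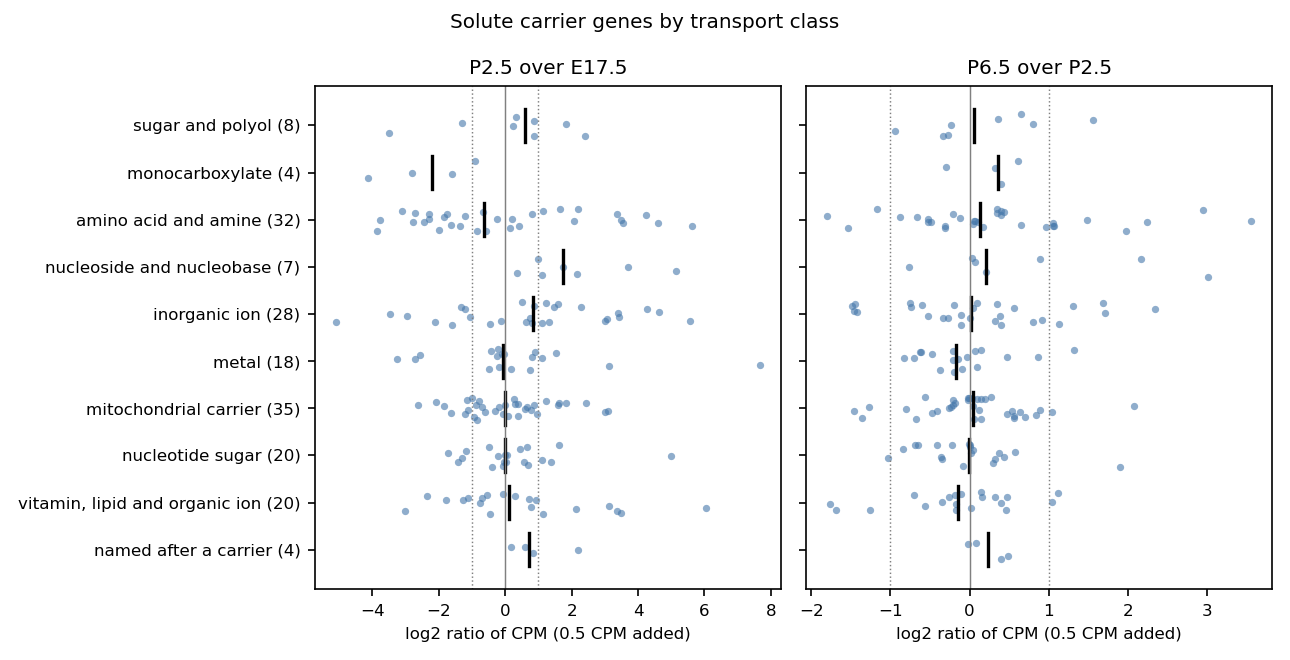
Log2 ratio of CPM (0.5 CPM added) for each member, by transport class with the number of members in brackets. Each point is 1 gene, the black bar is the class median, and dotted lines mark 2-fold. The SLC16 class has its median at -2.21 in the left panel and the nucleoside class at 1.73. Members were chosen on the same CPM.

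Among the 18 metal carriers, the vesicular zinc carrier gene Slc30a3 (ZNT3, known from synaptic vesicles) had the highest P2.5 over E17.5 ratio of all members once 0.5 CPM was added. It had 0 to 2.95 CPM in E17.5 cells (median 0), 0.831 to 347 in P2.5 cells (median 115.2) and 213.8 to 502 in P6.5 cells (median 320.5). In 99.3% of P2.5 cells the level lay above every E17.5 cell, and in 34.04% of P6.5 cells it lay above every P2.5 cell. The stage sums gave 0.152, 131.7 and 329.5 CPM. The log2 ratio was 9.76 for P2.5 over E17.5 (exact 95% counting interval 9.04 to 10.60) and 1.32 for P6.5 over P2.5 (1.31 to 1.33). After thinning each cell to 400000 counts, a read of Slc30a3 was found in 1 E17.5 cell (5.56%, exact Clopper-Pearson interval 0.141 to 27.3%), in 99.7% of P2.5 cells (98.1 to 99.99%) and in each of the 47 P6.5 cells. Without thinning the share at E17.5 was 38.9%. Intervals on shares of cells count the cells of 1 sample and hold no spread between animals.

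**Figure D2:**
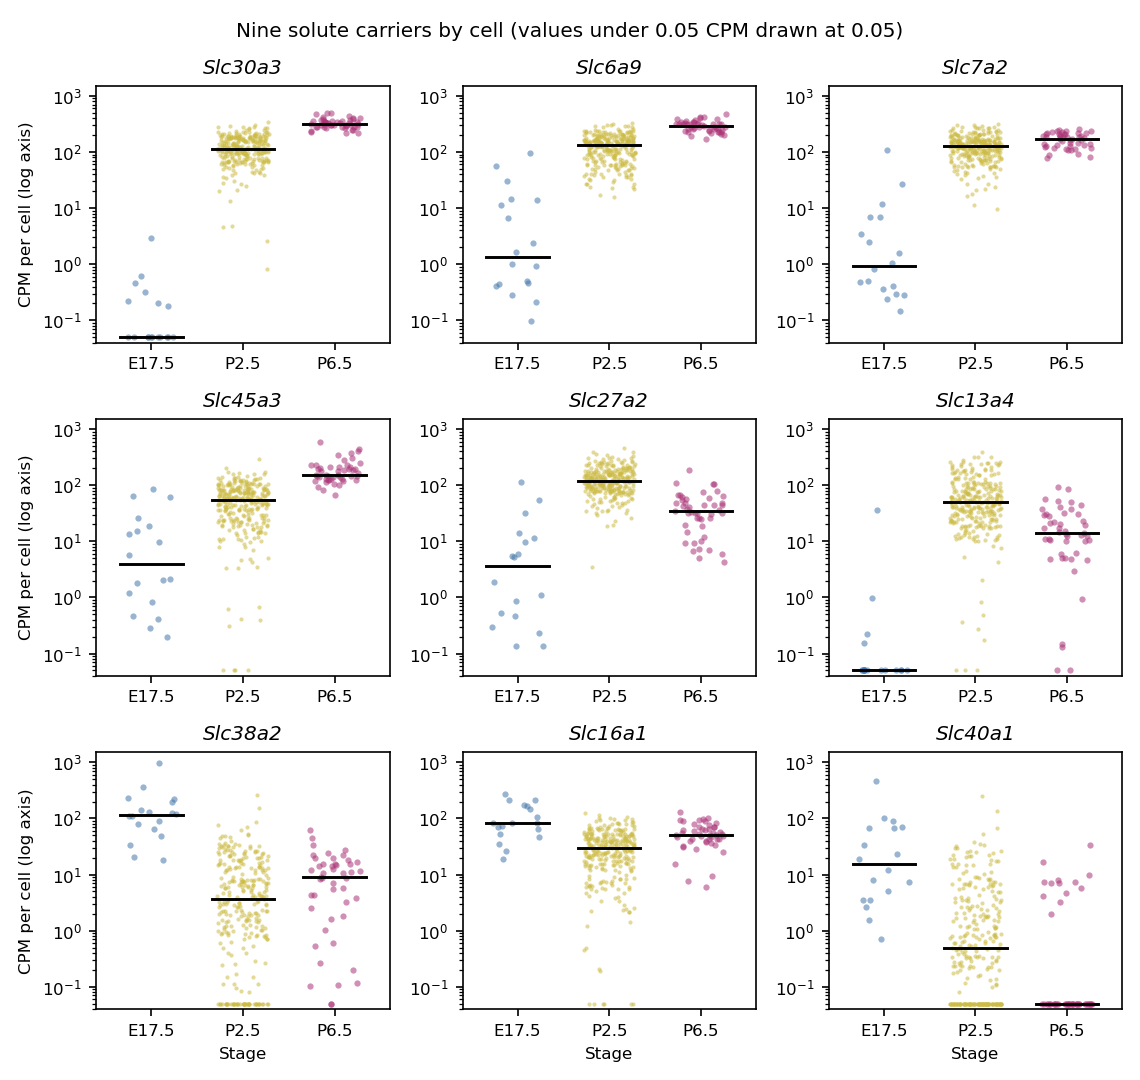
CPM per cell on a log axis for 9 members, with 1 point per cell, stages from left to right and the median as a black bar; values under 0.05 CPM are drawn at 0.05. Slc30a3, Slc6a9 and Slc7a2 separate E17.5 cells from most P2.5 cells, while Slc38a2 and Slc40a1 run the other way with overlapping cells.

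The gene lies on chr5:31086106-31108237 on the minus strand (GRCm38, GENCODE M21). Promoter windows of 4 members with large shifts are shown because the shifts run in opposite directions: Slc30a3, Slc6a9 and Slc6a20a were higher after birth and Slc38a2 lower. Each window runs from 250 bases before to 50 bases after a RefSeq transcript start (GRCm38.p6), 5′ to 3′ on the gene's own strand, and capitals mark TAATTG or its reverse complement, or TAATTA, letters bound by homeodomain factors such as the oocyte factor NOBOX.
Slc30a3 chr5:31108195-31108494 minus strand: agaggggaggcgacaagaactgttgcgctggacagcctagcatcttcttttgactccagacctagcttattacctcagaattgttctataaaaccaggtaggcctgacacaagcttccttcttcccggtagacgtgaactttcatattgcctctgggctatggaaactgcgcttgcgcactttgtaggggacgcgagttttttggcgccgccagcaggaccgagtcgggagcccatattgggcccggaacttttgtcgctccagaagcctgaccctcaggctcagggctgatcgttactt
Slc6a9 chr4:117849100-117849399 plus strand: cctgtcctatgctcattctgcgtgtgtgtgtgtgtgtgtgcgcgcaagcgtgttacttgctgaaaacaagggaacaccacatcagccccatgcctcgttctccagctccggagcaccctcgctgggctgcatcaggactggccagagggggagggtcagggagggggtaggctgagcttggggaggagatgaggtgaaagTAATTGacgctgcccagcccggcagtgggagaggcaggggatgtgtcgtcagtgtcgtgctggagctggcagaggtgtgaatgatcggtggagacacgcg
Slc6a20a chr9:123678783-123679082 minus strand: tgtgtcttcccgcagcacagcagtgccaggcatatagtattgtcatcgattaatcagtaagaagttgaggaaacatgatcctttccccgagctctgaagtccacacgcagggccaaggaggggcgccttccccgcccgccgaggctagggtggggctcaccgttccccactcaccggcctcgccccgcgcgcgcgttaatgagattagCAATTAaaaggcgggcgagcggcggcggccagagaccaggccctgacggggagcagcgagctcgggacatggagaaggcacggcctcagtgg
Slc38a2 chr15:96699679-96699978 minus strand: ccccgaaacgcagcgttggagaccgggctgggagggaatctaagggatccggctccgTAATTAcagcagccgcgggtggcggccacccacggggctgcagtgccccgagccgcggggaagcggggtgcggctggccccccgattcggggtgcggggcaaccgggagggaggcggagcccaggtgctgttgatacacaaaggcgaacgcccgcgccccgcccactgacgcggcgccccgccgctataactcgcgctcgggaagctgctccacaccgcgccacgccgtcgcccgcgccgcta

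The table has 3 windows for Slc6a9 and 2 for Slc30a3, and the data do not say which start was used. For such a gene the window with the most matches is shown, so the matches in the windows printed are no measure of how often the motif occurs. The motif begins 50 bases before the start in the Slc6a9 window, 42 bases before it in the Slc6a20a window and farther upstream in the Slc38a2 window. The Slc30a3 window shown holds neither sequence. An entry was found for 140 members, some with several windows. TAATTG on either strand was in 8.11% of member windows, against 8.0% of all 32851 windows. It was in 8 of 56 windows (14.3%) of the members that were higher by 2-fold or more at P2.5, and in 4 of 45 windows (8.89%) of those that were lower. TAATTA was in 3.24% of member windows against 5.29% of all. Its split ran the other way, with 1 of 56 windows (1.79%) of the higher members and 3 of 45 (6.67%) of the lower ones. The E-box CANNTG was in 70.3% of member windows against 72.3% of all. The motifs were counted separately, on both strands, and can overlap.

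The other metal carriers mostly stayed within 2-fold. By 2-fold or more, 4 were higher and 3 lower at P2.5 than E17.5, and at P6.5 Slc30a3 was the 1 higher member against P2.5, with 0 lower. At the first step this was 22.2% higher and 16.7% lower, against 24.3% and 23% of all genes of at least 10 CPM. At the second step it was 5.56% and 0%, against 5.35% and 7.12%. The zinc importer Slc39a6 (ZIP6), which mouse oocytes need for meiotic maturation, stood at 168.1, 144.7 and 263.1 CPM, a log2 ratio of -0.22 for P2.5 over E17.5 (-0.24 to -0.19) and 0.86 for P6.5 over P2.5 (0.85 to 0.87). It had 11.9 to 308.1 CPM in E17.5 cells (median 132.3), 13.3 to 332 in P2.5 cells (median 133.1) and 153.6 to 463 in P6.5 cells (median 267.2). The stages overlapped. Its partner importer Slc39a10 (ZIP10) stood at 22.1, 39.4 and 41.4 CPM, within 2-fold at both steps; without E17.5 library 17 its E17.5 level was 13.6 CPM and its first ratio 1.497. Slc39a11 (ZIP11) had 8.87, 81.3 and 52.4 CPM, and 72.7% of P2.5 cells were above every E17.5 cell. Slc39a3 (ZIP3) had 91.1, 13.5 and 14.4 CPM, and 37.5% of P2.5 cells were below every E17.5 cell. Slc30a9, of the zinc exporter family, had 141.9, 105.1 and 81.2 CPM. The iron importer Slc11a2 (DMT1) had 45.45, 77.1 and 47.3 CPM, and its first log2 ratio of 0.76 was 1.01 without E17.5 library 22.

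The iron exporter Slc40a1 (ferroportin) was lower after birth, with 52.8, 5.03 and 2.62 CPM and a log2 ratio of -3.39 for P2.5 over E17.5 (-3.44 to -3.34). It had 0.715 to 462.5 CPM in E17.5 cells (median 15.4), 0 to 252.4 in P2.5 cells (median 0.49) and 0 to 34.3 in P6.5 cells (median 0). Stages overlapped, and without E17.5 library 19 the E17.5 level was 34.3 CPM. Erythroid transcripts moved in the same direction, and their part was not tested.

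Of the 32 amino acid and amine carriers, 10 were higher by 2-fold or more at P2.5 than at E17.5 and 14 lower. That was 31.25% and 43.75%, against 24.3% and 23% of all genes of at least 10 CPM. The class had a median log2 ratio of -0.63. The median was below 0 with TMM and median-of-ratios scaling too (-0.23 and -0.40), but 0.04 from medians over cells and 1.79 per spike-in count. Between P6.5 and P2.5, 8 were higher by 2-fold or more at P6.5 (25%) and 3 lower (9.38%), against 5.35% and 7.12% of all genes. Among the lower members at the first step, Slc15a2, Slc1a5, Slc18a2, Slc43a1, Slc6a16 and Slc7a8 reached 10 CPM at E17.5 alone. Among the higher ones, Slc17a3, Slc38a8 and Slc6a7 reached it at P6.5 alone. The member rule thus set part of these counts and of the median.

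The glycine carrier Slc6a9 (GLYT1, chr4:117834506-117875198, plus strand) had 0.0972 to 96.65 CPM in E17.5 cells (median 1.33), 15.7 to 326.5 in P2.5 cells (median 132.9) and 173.7 to 470.4 in P6.5 cells (median 294.6). In 67.9% of P2.5 cells it lay above every E17.5 cell, and in 27.7% of P6.5 cells above every P2.5 cell. The stage sums were 12.2, 142.5 and 299.6 CPM, with log2 ratios of 3.55 (3.47 to 3.64) for P2.5 over E17.5 and 1.07 (1.06 to 1.08) for P6.5 over P2.5. By length-corrected level (FPKM, fragments scaled by gene length and library size) it was the fourth highest member at P6.5, with a mean of 185.8, and Slc30a3 the fifth with 159.1. At P2.5 they stood 11th and 13th, at 85.5 and 60.9 FPKM. Without E17.5 library 3 the E17.5 level of Slc6a9 was 6.30 CPM.

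The 7 members of the SLC6 family moved in both directions: 4 were higher by 2-fold or more at P2.5 than at E17.5 and 3 lower, and 5 were higher by that measure at P6.5 than at P2.5 and 0 lower. The lower ones were Slc6a4 and Slc6a6, described with the E17.5 libraries, and Slc6a16, an orphan of the family. Of all genes of at least 10 CPM, 24.3% were higher and 23% lower at the first step, and 5.35% and 7.12% at the second. Slc6a16 reached 10 CPM at E17.5 alone, and Slc6a4 and Slc6a7 at P6.5 alone, so the member rule set part of these directions. Slc6a16 had 17.5, 1.57 and 2.22 CPM and a log2 ratio of -3.48 for P2.5 over E17.5 (-3.56 to -3.39), and 62.5% of P2.5 cells lay below every E17.5 cell. Slc6a20a and Slc6a20b, neighbours on chromosome 9 and close copies that can share reads, are sodium-coupled carriers of proline and other imino acids. Slc6a20b had 0.222, 35.1 and 30.2 CPM, and 99.3% of P2.5 cells were above every E17.5 cell. Slc6a20a had 0.162, 15.6 and 32.9 CPM, with 76.8% of P2.5 cells above every E17.5 cell, and 0.031 CPM at E17.5 without library 12. The proline carrier Slc6a7 had no count in 98923694 at E17.5 and 1.06 and 17.8 CPM at P2.5 and P6.5, at least 34.98-fold higher at P2.5 than the level of 3 counts over the E17.5 sum. Its log2 ratio for P6.5 over P2.5 was 4.07 (4.003 to 4.14), and 36.2% of P6.5 cells were above every P2.5 cell. After thinning, a read of Slc6a7 was found in 0 of 18 E17.5 cells (up to 18.5%), in 44 P2.5 cells (15.02%, 11.1 to 19.6%) and 39 P6.5 cells (82.98%, 69.2 to 92.3%). Unthinned shares were 0%, 41.6% and 93.6%.

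Cationic amino acid carriers changed places. Slc7a2 (CAT2) had 0.145 to 108.99 CPM in E17.5 cells (median 0.931), 9.69 to 312.6 in P2.5 cells (median 125.7) and 76.96 to 256.02 in P6.5 cells (median 173.8). Slc7a1 (CAT1), named here after its values were seen, had 4.18 to 315.9 CPM in E17.5 cells (median 15.3), 0 to 55.1 in P2.5 cells (median 1.96) and 1.67 to 62.6 in P6.5 cells (median 19.6). Within a cell, Slc7a2 made up a median of 5.02% of the summed FPKM of both genes at E17.5 (0.0292 to 89.2%). This share was 97.7% at P2.5, with cells between 39.6 and 100%, and 84.3% at P6.5, with cells between 66.97 and 99.5%. It does not depend on the scaling between stages, and single cells of E17.5 overlapped the others. Stage sums were 10.9, 131.7 and 167.3 CPM for Slc7a2 and 39.2, 7.64 and 22.2 CPM for Slc7a1. Without E17.5 library 3 the Slc7a2 sum was 4.11 CPM, and without library 18 the Slc7a1 sum was 17.4 CPM.

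Several carriers of neutral amino acids were lower after birth by 2-fold or more. Slc38a2 (SNAT2, a sodium-coupled importer of small neutral amino acids that starved cells raise) had 18.4 to 988 CPM in E17.5 cells (median 114.7), 0 to 263.2 in P2.5 cells (median 3.70) and 0 to 63.03 in P6.5 cells (median 9.14). In 81.9% of P2.5 cells it lay below every E17.5 cell. Its log2 ratio was -3.94 for P2.5 over E17.5 (-3.96 to -3.91) and 0.07 for P6.5 over P2.5 (0.02 to 0.11). The exchanger Slc7a6 (y+LAT2), also named after its values were seen, stood at 161.5, 23.3 and 23.97 CPM. Its neighbour on the opposite strand, Slc7a6os, stood at 28.8, 44.2 and 62.3 CPM. Slc1a5 (ASCT2, a glutamine and neutral amino acid exchanger) had 20.4, 3.77 and 3.44 CPM, and Slc43a1 (LAT3, a carrier of large neutral amino acids) had 11.6, 0.382 and 0.127 CPM. In 91.1% of P2.5 cells Slc43a1 lay below every E17.5 cell. In library 15, set aside at E17.5, Slc1a5 was at 596.8 and Slc43a1 at 191.5 CPM, above the highest of the 18 used (132.8 and 63.3). Slc38a2 there, at 749.9 CPM, was under the highest of the 18 (988.2). So was Slc7a6 in library 16, at 100.8 CPM against 482.9. The part of erythroid and other cell transcripts in these E17.5 levels was not tested. Slc3a2 (the heavy chain CD98 that carries several light chains to the surface) stayed within 2-fold at 148.3, 82.1 and 129.5 CPM, as did its light chain Slc7a5 (LAT1) at 20.5, 22.5 and 30.6 CPM. The cystine carrier Slc7a11 (xCT), another light chain of Slc3a2, had 13.1, 61.1 and 65.7 CPM, and without E17.5 library 3 its E17.5 level was 3.39 CPM.

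Slc38a8, a sodium-coupled glutamine carrier known from the eye, had 0.222, 6.98 and 34.8 CPM, with a log2 ratio of 2.32 for P6.5 over P2.5 (2.28 to 2.35). Its E17.5 counts came from libraries 1 to 10 alone. Slc17a3, an organic anion carrier known from the kidney that the family rule places here, had 1 count at E17.5 and 9.20 and 18.4 CPM later. Its log2 ratio for P2.5 over E17.5 was 9.83 with an interval of 7.35 to 15.13. The glutamate carrier Slc1a3 and the glutamine carrier Slc38a3, both of the list read here, were not members, with highest stage levels of 1.54 and 0.0101 CPM.

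Amino acid and amine carriers also stood among the members with the lowest P6.5 over P2.5 ratios. The vesicular amine carrier Slc18a1 (VMAT1) had 0.409 to 94.2 CPM in E17.5 cells (median 4.84), 0 to 140.9 in P2.5 cells (median 30.5) and 0 to 33.9 in P6.5 cells (median 11.4). Its stage sums were 16.7, 37.1 and 10.35 CPM, with a log2 ratio of -1.84 for P6.5 over P2.5 (-1.89 to -1.80), after 1.15 for P2.5 over E17.5 (1.08 to 1.22). The peptide carrier Slc15a2 (PEPT2) had 14.55, 6.02 and 1.74 CPM, with a log2 ratio of -1.79 for P6.5 over P2.5 (-1.90 to -1.68). Its E17.5 level was 1.15 CPM in libraries 1 to 10 and 22.95 CPM in 11 to 22. The first ratio of -1.21 (0.5 CPM added) was -0.60 without library 18 and turned to 1.98 with libraries 1 to 10 alone.

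Of 8 sugar and polyol carriers, 2 were higher by 2-fold or more and 2 lower at P2.5 than E17.5. That was 25% and 25%, against 24.3% and 23% of all genes of at least 10 CPM. At P6.5, 1 (Slc45a3) was higher than at P2.5 (12.5%), against 5.35% of all genes. The glucose carrier Slc2a1 (GLUT1) stayed within 2-fold. It had 1.56 to 87.01 CPM in E17.5 cells (median 11.9), 0 to 171.8 in P2.5 cells (median 34.4) and 24.2 to 113.97 in P6.5 cells (median 60.9). The stage sums were 33.9, 39.8 and 63.04 CPM, with log2 ratios of 0.23 (0.18 to 0.28) for P2.5 over E17.5 and 0.66 (0.64 to 0.68) for P6.5 over P2.5. The cells of all stages overlapped. Slc2a3 (GLUT3), a glucose carrier of early embryos and neurons, was not a member, at 6.59, 0.682 and 0.684 CPM.

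Slc45a3 (prostein, of a proton-coupled sugar carrier family) was at least 2-fold higher at both steps. It had 0.195 to 84.2 CPM in E17.5 cells (median 3.88), 0 to 290.4 in P2.5 cells (median 55.6) and 66.99 to 589 in P6.5 cells (median 150.2). Its log2 ratio was 2.44 for P2.5 over E17.5 (2.36 to 2.52) and 1.57 for P6.5 over P2.5 (1.55 to 1.58). Without E17.5 library 3 its E17.5 sum was 7.199 CPM, against 12.2 CPM with it. Slc50a1 (SWEET1, a sugar efflux carrier) had 4.28, 16.5 and 29.3 CPM, and 1.53 CPM at E17.5 without library 18. The sodium-coupled carriers went the other way: Slc5a10 (a mannose and fructose carrier) had 35.98, 2.75 and 3.66 CPM and lay below every E17.5 cell in 59.04% of P2.5 cells. The inositol carrier Slc5a3 had 80.8, 32.3 and 26.7 CPM, but without E17.5 library 20 its ratio was -0.88, under 2-fold, and with E17.5 libraries 1 to 10 alone it was 0.27. Slc37a3, of a sugar phosphate exchanger family, had 19.8, 25.1 and 19.9 CPM. Slc45a4, of the same family as Slc45a3, had 6.88, 13.1 and 6.56 CPM, and without E17.5 library 19 its first ratio was 1.78 in place of 0.88.

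The 4 members of the monocarboxylate family SLC16 had a lower share at P2.5 than at E17.5, 3 of them by 2-fold or more. Of all genes of at least 10 CPM, 23% were lower by that measure. Between P2.5 and P6.5, 0 of the 4 passed 2-fold. The median log2 ratio for P2.5 over E17.5 was -2.21, with -1.82 and -1.98 under TMM and median-of-ratios scaling and 0.24 per spike-in count, where the sign turned. Slc16a1 (MCT1, a carrier of lactate and pyruvate) had 18.8 to 277.8 CPM in E17.5 cells (median 82.3), 0 to 124.3 in P2.5 cells (median 29.1) and 5.99 to 128.96 in P6.5 cells (median 50.998). In 31.4% of P2.5 cells it lay below every E17.5 cell. Its log2 ratio was -1.62 for P2.5 over E17.5 (-1.65 to -1.59), and 0.61 for P6.5 over P2.5 (0.59 to 0.64). Slc16a3 (MCT4, a lactate exporter of glycolytic cells) had 13.9, 1.54 and 1.15 CPM and lay below every E17.5 cell in 91.5% of P2.5 cells. It reached 10 CPM at E17.5 alone, so a lower level at P2.5 was set by the member rule. Slc16a10 (TAT1, a carrier of aromatic amino acids) had 49.9, 26.2 and 32.7 CPM. Slc16a7 (MCT2, a pyruvate carrier) was not a member, at 0.981, 0.157 and 0.0733 CPM.

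Of the 7 members of the families of nucleoside, nucleobase and ascorbate carriers (SLC23, SLC28 and SLC29), 5 were higher by 2-fold or more at P2.5 than at E17.5 and 0 lower. Another step of 2-fold or more followed at P6.5 in 2 of them. Their summed level in single cells had medians of 49.5, 164.7 and 316.2 CPM at the 3 stages, and the P6.5 cells (226.3 to 516 CPM) lay above every E17.5 cell (5.78 to 214.2 CPM). P2.5 cells (3.92 to 458 CPM) overlapped both. The median log2 ratio was 1.73 for P2.5 over E17.5 and 0.20 for P6.5 over P2.5, against 0.01 and -0.17 for all genes of at least 10 CPM. At the first step 24.3% of those genes were higher by 2-fold or more and 23% lower. Slc23a3, Slc28a1, Slc29a3 and Slc29a4 were under 10 CPM at E17.5 and became members by a later stage. The higher counts and the median of this class were thus in part set by the member rule.

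Slc29a4 (PMAT, a carrier of monoamines and adenosine) had no count at E17.5, against 17.4 and 18.2 CPM at P2.5 and P6.5. That was at least 572.5-fold higher at P2.5 than the level of 3 counts over the E17.5 sum. After thinning it was found in 0 of 18 E17.5 cells (up to 18.5%), in 78.8% of P2.5 cells (73.7 to 83.4%) and in 42 P6.5 cells (89.4%, 76.9 to 96.4%), and unthinned in 0%, 89.4% and 95.7% at the 3 stages. Slc23a3, a carrier of the ascorbate family, had 0 to 1.85 CPM in E17.5 cells (median 0), 0 to 83.9 in P2.5 cells (median 0.782) and 6.56 to 192.5 in P6.5 cells (median 51.3). Its log2 ratio for P6.5 over P2.5 was 3.09 (3.07 to 3.12). The sodium-coupled nucleoside carrier Slc28a1 (CNT1) had 2.99, 11.1 and 51.6 CPM, and 0.246 CPM at E17.5 without library 17. Its E17.5 counts came from libraries 11 to 22 alone. The ascorbate carrier Slc23a2 (SVCT2) had 33.1, 71.4 and 132.3 CPM, and 21.4 CPM at E17.5 without library 18. Of the equilibrative nucleoside carriers, Slc29a1 (ENT1) had 15.2, 19.5 and 11.3 CPM and Slc29a2 (ENT2) had 16.55, 33.5 and 34.2 CPM. The Slc29a2 level at E17.5 came from libraries 11 to 22 alone, and without library 17 it was 8.34 CPM and the first ratio 1.94 in place of 0.99.

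Of 28 inorganic ion carriers, 13 were higher by 2-fold or more and 8 lower at P2.5 than E17.5. That was 46.4% and 28.6%, against 24.3% and 23% of all genes of at least 10 CPM. Of the same class, 5 were higher and 4 lower at P6.5 than at P2.5 (17.9% and 14.3%), against 5.35% and 7.12%. The potassium-chloride cotransporters Slc12a4, Slc12a5 and Slc12a7, which let salt leave a swollen cell, were each higher by 2-fold or more at P2.5 than at E17.5; they were named after their values were seen. Slc12a7 (KCC4) had 36.7, 112.1 and 104.4 CPM. It had 1.87 to 189.4 CPM in E17.5 cells (median 11.2), 3.92 to 297.6 in P2.5 cells (median 100.95) and 51.8 to 212.3 in P6.5 cells (median 100.6). Slc12a4 (KCC1) had 2.35, 13.4 and 14.4 CPM and Slc12a5 (KCC2) had 0.0404, 3.89 and 10.4 CPM. Without E17.5 library 1 Slc12a4 was at 0.515 CPM at E17.5. The sodium-potassium-chloride importer Slc12a2 (NKCC1) stayed within 2-fold at 23.9, 21.99 and 19.1 CPM, with cells of all stages overlapping.

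Carriers of bicarbonate and protons moved in both directions. Slc4a5 (NBCE2, a sodium-bicarbonate carrier) had 2 counts at E17.5 and 24.1 and 24.8 CPM later, and 95.9% of P2.5 cells were above every E17.5 cell. Its log2 ratio for P2.5 over E17.5 was 10.22 (8.37 to 13.27). The bicarbonate carrier Slc4a7 (NBCN1) had 78.2, 25.3 and 37.5 CPM, and the anion exchanger Slc4a2 (AE2) had 33.96, 16.1 and 21.2 CPM; without E17.5 library 6 the ratio of Slc4a2 was -0.51, under 2-fold. Within a cell Slc4a5 made up a median of 0%, 50.8% and 38.6% of the summed FPKM of Slc4a5 and Slc4a7, with 0% in every E17.5 cell. Slc4a8, another sodium-coupled bicarbonate carrier, had 2.14, 4.27 and 23.8 CPM, with a log2 ratio of 2.48 for P6.5 over P2.5 (2.44 to 2.52). Its first ratio was 0.85 and became 2.44 without E17.5 library 19. Slc9a4 (NHE4) had no count at E17.5 and 12.003 and 9.42 CPM later, at least 396-fold higher at P2.5. The sodium-proton exchanger Slc9a8 (NHE8, of the Golgi) had 120.5, 88.3 and 73.04 CPM.

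Several ion carriers stood among the lowest ratios of a step. For P2.5 over E17.5 these were the iodide importer Slc5a5 (NIS), with 24.8, 1.76 and 2.38 CPM and a log2 ratio of -3.82 (-3.89 to -3.74), and the sodium-proton exchanger Slc9a5 (NHE5), with 11.7, 1.06 and 0.579 CPM. Without E17.5 library 20 Slc5a5 was at 8.53 CPM at E17.5. Slc9a5 was at 6.26 CPM without library 6, and its E17.5 counts came from libraries 1 to 10 alone; with 11 to 22 alone its ratio was 1.64. For P6.5 over P2.5, Slc26a8, an anion exchanger known from sperm, had 1.87 to 273.2 CPM in E17.5 cells (median 49.3), 0 to 258.5 in P2.5 cells (median 16.5) and 0 to 23.3 in P6.5 cells (median 6.03). Its log2 ratio was -1.23 for P2.5 over E17.5 (-1.27 to -1.18) and -1.52 for P6.5 over P2.5 (-1.57 to -1.46). Slc4a11 had 11.5, 4.26 and 1.25 CPM, Slc9a7 (NHE7) had 7.66, 13.2 and 4.58 CPM and Slc9b1 had 6.58, 17.2 and 5.82 CPM. The E17.5 levels of these 3 rested in part on single libraries: without library 18 Slc4a11 was at 4.69 CPM, without library 6 Slc9a7 at 1.53 CPM and without library 9 Slc9b1 at 3.98 CPM.

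Among anion, phosphate and calcium carriers, the chloride-bicarbonate exchanger Slc26a7 showed the lowest P2.5 over E17.5 ratio of all members. It had 0.778 to 136.8 CPM in E17.5 cells (median 16.2), 0 to 63.65 in P2.5 cells (median 0) and 0 to 9.63 in P6.5 cells (median 0). In 92.8% of P2.5 cells it lay below every E17.5 cell, and the log2 ratio was -5.98 (-6.07 to -5.89). Its relative Slc26a6, named after its values were seen, had 1.78, 18.7 and 61.2 CPM, and 0.382 CPM at E17.5 without library 18. In 34.04% of P6.5 cells Slc26a6 was above every P2.5 cell. The phosphate importer Slc20a1 (PIT1) had 138.1, 31.8 and 41.95 CPM, and the sodium-calcium-potassium exchanger Slc24a3 had 0.718, 22.9 and 22.9 CPM. Slc12a9, an orphan of the cation-chloride family, had 15.02, 23.5 and 78.3 CPM, with a median of 0 over E17.5 cells and a highest cell of 380.0 CPM. It was counted in all 8 of the E17.5 libraries 1 to 10 and in 0 of the 10 numbered 11 to 22. Without E17.5 library 5, which had 105.2 CPM, the E17.5 level was 8.80 CPM and the first ratio 1.37 in place of 0.63.

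The 35 mitochondrial carriers summed to 3073, 2851 and 2944 CPM, and most stayed within 2-fold. By 2-fold or more, 7 were higher and 7 lower at P2.5 than E17.5 (20% each), against 24.3% and 23% of all genes of at least 10 CPM. At P6.5, 2 were higher and 3 lower than at P2.5 (5.71% and 8.57%), against 5.35% and 7.12%. The class median for P2.5 over E17.5 was -0.02, against 0.01 for all genes. By FPKM the phosphate carrier Slc25a3 led at E17.5 and P2.5 with means of 344 and 321.5, and the adenine nucleotide carrier Slc25a5 led at P6.5 with 357. The matrix glutathione carrier Slc25a39 had 139.9, 274.9 and 276.3 FPKM; its CPM ratio for P2.5 over E17.5 was 0.96, and 1.28 without E17.5 library 17. Slc25a17, a carrier of peroxisomes, was the 8th, 4th and 9th highest member by FPKM at the 3 stages, with means of 102.3 FPKM at E17.5 and 106.5 FPKM at P6.5. The oxoglutarate carrier Slc25a11 was the 10th highest member at E17.5 with 70.6 FPKM; its CPM ratio for P2.5 over E17.5 was -1.22 (-1.25 to -1.19).

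**Figure D3:**
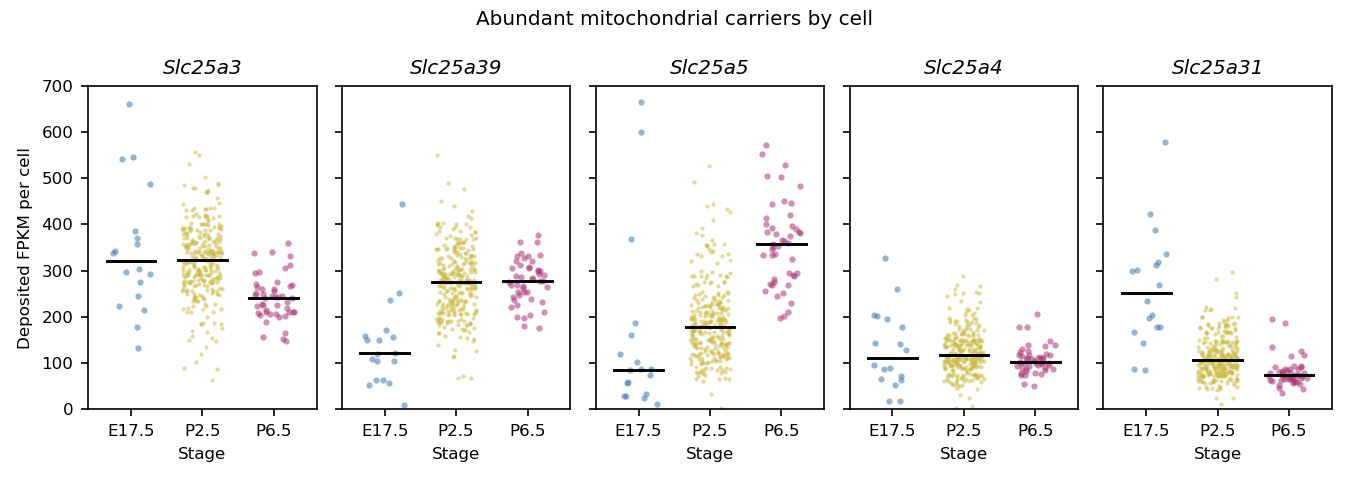
Deposited FPKM per cell for 5 abundant mitochondrial carriers, with 1 point per cell, stages from left to right and the median as a black bar. The Slc25a31 median is 72.97 FPKM at P6.5 against 250.9 at E17.5, and the Slc25a5 median 356.6 at P6.5 against 84.96 at E17.5.

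The adenine nucleotide carriers, which export ATP from mitochondria, differed from each other. Slc25a31 (ANT4, the form known from male germ cells) had 202.99 to 1199.8 CPM in E17.5 cells (median 466), 30.6 to 616 in P2.5 cells (median 231.6) and 75.6 to 412 in P6.5 cells (median 159.6). Slc25a5 (ANT2, the form of growing cells) had 14.9 to 890.3 CPM in E17.5 cells (median 114.9), 4.42 to 588 in P2.5 cells (median 213.8) and 244.1 to 687 in P6.5 cells (median 432). Within a cell Slc25a31 made up a median of 54.1% of the summed FPKM of Slc25a4, Slc25a5 and Slc25a31 at E17.5 (7.89 to 88.4%). The median was 26.4% at P2.5, with cells between 5.71 and 82.5%, and 14.01% at P6.5, with cells between 5.65 and 32.2%. Slc25a5 made up 19.96%, 43.6% and 67.8%. Cells of neighbouring stages overlapped in both shares. These genes have close copies and pseudogenes, so the split of reads is uncertain; from CPM the Slc25a31 median was 35.6% at P2.5 and 21.1% at P6.5.

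**Figure D4:**
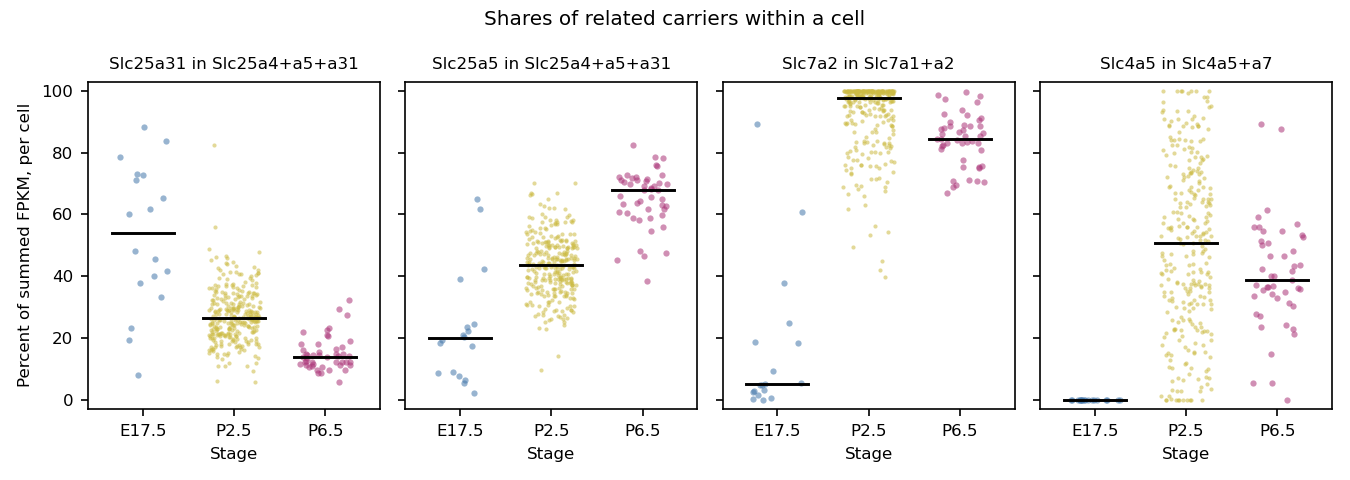
Share of 1 carrier in the summed FPKM of related carriers within each cell, with 1 point per cell, stages from left to right and the median as a black bar. The Slc7a2 share has medians of 5.02%, 97.7% and 84.3%, and the Slc25a31 share of 54.1%, 26.4% and 14.01%.

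Other mitochondrial carriers crossed 2-fold. The ornithine carrier Slc25a15 had 0 to 67.9 CPM in E17.5 cells (median 2.15), 0.708 to 293.4 in P2.5 cells (median 113.03) and 62.5 to 260.8 in P6.5 cells (median 126.2). In 79.5% of P2.5 cells it lay above every E17.5 cell. Slc25a42, a carrier of coenzyme A, had 106.7, 16.96 and 9.51 CPM. Slc25a48 had 1.17, 8.45 and 37.3 CPM, with a log2 ratio of 2.14 for P6.5 over P2.5 (2.11 to 2.17), and 34.04% of P6.5 cells were above every P2.5 cell. Its E17.5 counts came from libraries 1 to 10 alone, and without library 3 it was at 0.259 CPM there, with a first ratio of 3.56 in place of 2.42. Slc25a35, counted at E17.5 in libraries 11 to 22 alone, had 0.647, 8.69 and 18.5 CPM, or 0.0435 CPM at E17.5 without library 22. Slc25a25, a carrier of ATP-magnesium and phosphate, had 81.002, 18.65 and 27.7 CPM. Lower at P6.5 than at P2.5 by 2-fold or more were Slc25a13 (citrin, an aspartate and glutamate carrier), with 9.43, 15.2 and 5.22 CPM, and Slc25a27 (UCP4), with 15.7, 7.66 and 2.69 CPM. Without E17.5 library 19 the first ratio of Slc25a13 was 1.29 in place of 0.67. The citrate carrier Slc25a1 had 168.3, 135.6 and 221.6 CPM, within 2-fold at both steps, and Slc25a4 (ANT1) had 223.9, 220.9 and 191.2 CPM.

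The SLC35 family includes carriers of nucleotide sugars into the Golgi and the endoplasmic reticulum, and its members were classed by family number alone. Of the 20 members, 4 were higher by 2-fold or more at P2.5 than at E17.5 and 4 lower. That was 20% each, against 24.3% and 23% of all genes of at least 10 CPM. At P6.5, 1 was higher and 1 lower by that measure against P2.5 (5% each), against 5.35% and 7.12%. Slc35a4 had 87.7, 229.2 and 179.02 CPM and Slc35b4 (a carrier of UDP-xylose and UDP-N-acetylglucosamine) had 46.2, 142.6 and 111.8 CPM. Slc35c2 stayed within 2-fold at 144.7, 197.3 and 198.3 CPM. Slc35f3 had 3 counts at E17.5 and 16.5 and 24.7 CPM later, with a log2 ratio of 9.09 for P2.5 over E17.5 (7.54 to 11.37), and 93.2% of P2.5 cells were above every E17.5 cell. Slc35e4 had 15.65, 6.66 and 26.2 CPM, with a log2 ratio of 1.98 for P6.5 over P2.5 (1.94 to 2.01). Its E17.5 level was 2.19 CPM without library 18, and its first ratio of -1.17 (0.5 CPM added) turned to 1.41. The lowest ratios of the class for P2.5 over E17.5 were those of Slc35g1, with 15.95, 4.46 and 3.23 CPM, and Slc35a3 (a carrier of UDP-N-acetylglucosamine), with 62.5, 23.3 and 23.5 CPM. Those for P6.5 over P2.5 were of Slc35a5, with 45.3, 18.25 and 8.67 CPM, and Slc35e1, with 20.9, 17.996 and 9.85 CPM. The first ratio of Slc35a5 was -0.95, under 2-fold, without E17.5 library 20, and 0.10 from medians over cells.

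Of the 20 carriers of vitamins, lipids and organic ions, 6 were higher by 2-fold or more at P2.5 than at E17.5 and 5 lower. That was 30% and 25%, against 24.3% and 23% of all genes of at least 10 CPM. Against P2.5, 2 were higher and 3 lower at P6.5 (10% and 15%), against 5.35% and 7.12%. In this class, 2 members were at least 2-fold higher at the first step and at least 2-fold lower at the second. Slc27a2, which takes up and activates very long chain fatty acids, had 0.139 to 115.9 CPM in E17.5 cells (median 3.58), 3.54 to 465 in P2.5 cells (median 119.05) and 4.21 to 185.1 in P6.5 cells (median 35.1). Its log2 ratio was 3.17 for P2.5 over E17.5 (3.09 to 3.24) and -1.70 for P6.5 over P2.5 (-1.73 to -1.68). The family rule places the sulfate carrier Slc13a4 here and not among the inorganic ion carriers. It had 0 to 36.5 CPM in E17.5 cells (median 0), 0 to 395 in P2.5 cells (median 49.6) and 0 to 94.04 in P6.5 cells (median 13.96). Its log2 ratios were 6.98 (6.60 to 7.39) and -1.79 (-1.82 to -1.76). Per spike-in count the second step of both genes was positive, at 1.23 and 1.14. Without E17.5 library 3 Slc27a2 was at 7.74 CPM at E17.5, and without library 7 Slc13a4 was at 0.0308 CPM. The riboflavin carrier Slc52a2 was higher at both steps, with 14.8, 66.8 and 138.4 CPM, and the choline carrier Slc44a2 had 4.85, 59.9 and 83.4 CPM, or 2.83 CPM at E17.5 without library 13. Slc10a6 (SOAT, a carrier of sulfated steroids) had no count at E17.5 and 4.62 and 10.6 CPM later, at least 152.2-fold higher at P2.5 than the level of 3 counts over the E17.5 sum. Lower at P2.5, set against E17.5, were Slc22a21 (OCTN3, a carnitine carrier), with 58.04, 6.75 and 5.94 CPM and a log2 ratio of -3.10 (-3.15 to -3.06), and Slc22a17, with 19.8, 3.49 and 4.48 CPM. The fatty acid carrier Slc27a1 (FATP1) stayed within 2-fold at 83.7, 61.35 and 56.6 CPM.

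Of the 4 proteins named after a carrier, 1 passed 2-fold at a step. Slc4a1ap had 65.8, 118.6 and 125.5 CPM and Slc9a3r1 had 51.2, 58.03 and 57.1 CPM. Slc9a3r2 had 4.49, 22.3 and 29.4 CPM, and 2.75 CPM at E17.5 without library 19. Without E17.5 library 20 Slc4a1ap and Slc7a6os passed 2-fold at the first step, at 1.02 and 1.04.

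Among 98 members that reached 20 CPM at P2.5 and were counted in 50% or more of its cells, the 90th percentile over the 10th ran from 1.72 for Slc25a3 to 103.7 for Slc12a9. This ratio was 24.8 for the fatty acid carrier Slc27a4, 22.97 for Slc25a44 (a carrier of branched-chain amino acids) and 15.8 to 16.6 for Slc18a1, Slc35f2 and Slc29a2. The 10th percentile was 336.4 CPM for Slc25a3, but 0.474 for Slc12a9, 1.82 for Slc27a4 and 1.92 for Slc25a44. Wide ratios thus rested on 10th percentiles near 0 CPM, and the part of missed reads in them was not tested. Slc27a4 had 38.7, 22.9 and 20.1 CPM, Slc25a44 18.9, 22.6 and 24.65 CPM and Slc35f2 15.15, 22.9 and 22.8 CPM at the 3 stages. Without E17.5 library 21 Slc27a4 was at 25.6 CPM, without 18 Slc25a44 at 10.95 CPM and without 17 Slc35f2 at 8.35 CPM at E17.5. Among 110 such members at P6.5 the ratio ran from 1.45 for Slc4a1ap to 21.7 for Slc13a4. Across P2.5 cells, Spearman's rho with the summed CPM of 11 oocyte growth genes (such as Zp3, Gdf9 and Padi6) was 0.55 for Slc39a6 and Slc6a9, 0.48 for Slc45a3, 0.47 for Slc30a3 and -0.24 for Slc35b4. Their rho with sequencing depth, in the same order, was 0.30, 0.33, 0.28, 0.21 and -0.15. Across the 47 P6.5 cells it was 0.72 for Slc25a48, 0.62 for Slc45a3, 0.61 for Slc30a3, -0.62 for Slc25a3 and -0.63 for Slc27a2. These values describe cells that share libraries, depth and composition, since growth genes alone took a median of 42340 CPM in P6.5 cells, against 8365 CPM in P2.5 cells.

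The E17.5 libraries differed by their number. Mast cell transcripts (a list of 8 genes, of which Fcer1a was at 0) summed to 1518 to 13680 CPM among the 8 libraries numbered 1 to 10 used here, while the 10 numbered 11 to 22 had 10.1 to 239.7 CPM. The labels do not say how these libraries differ. Slc6a4 (the serotonin carrier) and Slc18a2 (the vesicular monoamine carrier), both known in mast cells, followed the same split. Slc6a4 had 7.65 to 90.5 CPM among libraries 1 to 10 (median 17.8) and at most 2.84 CPM among 11 to 22 (median 0). Slc18a2 had 20.3 to 130.8 CPM (median 35.2) and 0.0972 to 40.65 CPM (median 1.74). Slc45a3 had medians of 22.1 and 1.01 CPM, Slc7a8 of 16.1 and 2.44, Slc31a2 of 27.8 and 2.52 and the taurine carrier Slc6a6 of 14.03 and 4.33. Slc7a8, Slc18a2 and Slc31a2 were named after their values were seen. The stage sums of Slc6a4 were 7.36, 0.945 and 10.7 CPM, and its log2 ratio for P2.5 over E17.5 was -2.44 with the 18 libraries and 1.23 with 11 to 22 alone (0.5 CPM added). At P6.5 the mast cell list stood at 6.64 CPM with Tpsb2, Cma1 and Mcpt4 at 0, and Slc6a4 was 2.95 above P2.5 (log2, 0.5 CPM added). The part of mast cell transcripts in the E17.5 values was not tested. Counts of 17 members came from 1 of the 2 library sets alone. No share of all genes was taken for this count, so it is not shown to be particular to solute carriers. Slc12a9, Slc38a8, Slc9a5 and Slc25a29 were counted in 8 of the 8 libraries 1 to 10 and in 0 of the 10 numbered 11 to 22. Slc29a2 and the sialic acid carrier Slc17a5, named after its values were seen, were counted in 10 of the 10 libraries 11 to 22 and in 0 of the other 8.

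**Figure D5:**
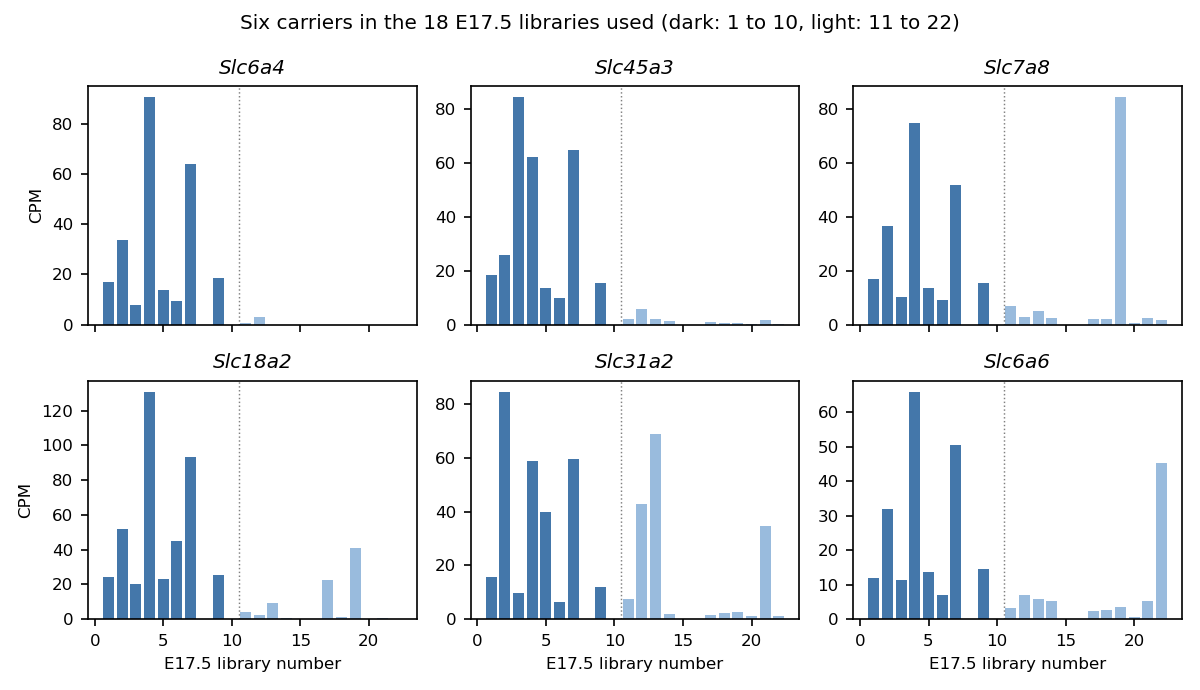
CPM of 6 carriers in each of the 18 E17.5 libraries used, by library number. Dark bars are libraries 1 to 10 and light bars 11 to 22; Slc6a4 and Slc45a3 are at most 2.84 and 5.68 CPM in libraries 11 to 22.

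Growth gene transcripts differed too: libraries 1 to 10 had a median of 292.2 CPM, and 11 to 22 of 24.4 CPM. Slc6a9 had 30.1 and 0.888 CPM in the sums of these sets. By medians Slc27a2 had 10.7 and 0.498 CPM, and Slc7a2 had 5.16 and 0.391. With libraries 1 to 10 alone 69 members (39.2%) were higher by 2-fold or more at P2.5 and 41 (23.3%) lower, against 29.1% and 19.9% of all genes. With 11 to 22 alone these counts were 62 and 47 (35.2% and 26.7%), against 26.2% and 23.9%. Leaving out E17.5 cells with granulosa, stroma, endothelium, immune or surface epithelium transcripts, and such cells of the other stages, gave 69 and 40. Only 6 E17.5 cells were left there, all with erythroid transcripts, and no share of all genes was taken for this setting. With all 22 E17.5 libraries the counts were 52 and 45 (29.55% and 25.6%), against 23.65% and 21.8% of all genes. For each member in turn, the E17.5 library that moved it most was left out. This moved the ratio of 48 members by over 1.5-fold and changed the 2-fold call of 33, with no share of all genes taken. Library 18 was that library for 10 of the 48, the most of any.

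Partners of the carriers were read from a list of 17 genes. By 2-fold or more, 2 were higher and 4 lower at P2.5 than E17.5, and 2 higher and 1 lower at P6.5 than at P2.5. The shares of all genes of at least 10 CPM were 24.3% higher and 23% lower at the first step, and 5.35% and 7.12% at the second. Bsg (basigin, which carries MCT1 and MCT4 to the surface) had 322, 532 and 659 CPM, while the other chaperone Emb had 14.7, 6.32 and 18.3 CPM. Txnip, an arrestin that takes GLUT1 off the surface, had 130.8, 298.8 and 689.5 CPM. The kinase Sgk1, which activates several carriers, had 48.3, 9.95 and 6.71 CPM, and the ubiquitin ligase Nedd4l, which removes carriers, had 15.2, 45.4 and 73.2 CPM. The kinase Oxsr1, an activator of NKCC1, had 35.2, 23.1 and 7.997 CPM, and its relative Stk39 had 7.49, 1.64 and 0.599 CPM. The kinase Wnk1, which acts on both, had 555.6, 335.9 and 272.5 CPM. The mitochondrial pyruvate carrier subunits Mpc1 and Mpc2 stayed within 2-fold at 10.6, 8.58 and 7.98 CPM and at 124.6, 89.3 and 85.7 CPM. Also within 2-fold at both steps were the pump subunits Atp1b1 (65.7, 38.9 and 35.04 CPM) and Atp1b3 (log2 ratios of 0.41 and -0.30), the chaperone Nptn (60.9, 68.1 and 71.1 CPM) and the outer membrane channels. Of the channels, Vdac1 had 87.6, 59.2 and 114.6 CPM, Vdac2 had 263.6, 164.1 and 110.9 CPM and Vdac3 had 411.5, 405.9 and 449.5 CPM.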

How the data were processed

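Raw gene counts and FPKM values (corrected for length and library size) were deposited by the authors as 1 column per library. Per the labels' protocols, libraries were made with Smart-seq2 and sequenced as 150-base pairs. Per the submitters' processing notes, STAR 2.7.10b, HTSeq 0.13.5, RSEM 1.3.3 and build mm10 were used; the sources used here do not say which tool made each file, nor the annotation and strand. Members and lists were chosen with earlier results of these data known.

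The deposited counts hold 54658 genes and 92 ERCC spike-ins, which stayed out of CPM. Nearest P2.5 libraries with a median chi-square under 1.5 over genes with at least 20 counts (24 pairs, 0.686 to 1.03; the closest other pair 2.315) were summed, so 386 libraries gave 362 cells. The stages held 18, 293 and 47 cells, and 176 of 379 Slc genes were members (172 of them carriers). Counts were summed per stage and scaled to CPM. Named ratios are raw with exact Poisson 95% intervals; counts of members use 0.5 CPM added. Shares have Clopper-Pearson intervals that treat the cells of 1 sample as independent draws and hold no spread between animals. Intervals of ratios cover counting error only, reads without molecular identifiers not being independent molecules. No test was made, since the labels name no animals. No doublet caller was run; marker lists (at least 10 counts after thinning to 100000) stood in. Named genes were the 10 highest and lowest ratios per step, the 10 highest FPKM per stage, the extremes of each class, those at the limit, the widest spreads and a fixed list. Classes follow family numbers. TMM came from edgeR 4.0.16. Ratios were tested on simulated data. Alternatives were 18 settings and leaving out each E17.5 library. Of the genes this rule names, 4 are not reported here.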

Additional observations from a re-analysis of the deposited data

Results flagged for a closer look

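The 4 E17.5 libraries set aside enter only the counts given with all 22 and the values printed with their library number. Of these 4 libraries, 3 held solute carrier signals far above the other 18. A value is given where a gene reached at least 100 CPM and at least 5-fold the highest of the 18, limits chosen after the data were seen. In library 10 these were Slc18a2 at 1033 CPM, Slc6a4 at 650.9, Slc7a8 at 638.3, Slc45a3 at 524.2, Slc31a2 at 439.2, Slc2a6 at 386 and Slc6a12 at 154.5 CPM. In library 15 they were Slc16a3 at 589.1 CPM, Slc38a5 at 341.4, Slc43a3 at 273.9 and Slc14a1 at 265.1 CPM. In library 8 they were Slc38a5 at 120.9 CPM and Slc25a21 at 109.6 CPM. Library 16 had no such gene.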

How the results depend on the processing

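Counts are given as percent of members. Per spike-in count 81.25% were at least 2-fold higher and 2.84% lower at P2.5 against E17.5, and 98.3% higher and 0% lower at P6.5 against P2.5. On that scale 85.2% of all genes of at least 10 CPM were higher and 3.6% lower at the first step. At the second step these shares were 97.4% and 0.11%. Members of at least 20 CPM gave 22.2% lower at the first step and 10.4% higher and 5.18% lower at the second. Every Slc gene with a count gave 23.7% lower at the first step and 5.87% at the second. A limit of 1.5-fold gave 19.9% higher and 17.6% lower at the second step, and the median over cells 20.45% higher there. With at least 10 FPKM in place of 10 CPM 30.9% of Slc genes were members, and 98.9% had a count. Leaving out each E17.5 library in turn, chosen after seeing the data, gave 28.98% to 32.95% higher and 23.3% to 27.3% lower at the first step. The other settings stayed within 1.5 times of the counts without a change of setting. Leaving out cells with any transcripts of other cell types gave no value for E17.5, where all 18 cells hold erythroid transcripts.

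The sign turned per spike-in count at P2.5 over E17.5 for Slc5a3 (1.24), Slc16a1 (0.95), Slc7a1 (0.22), Slc7a8 (0.58), Slc1a5 (0.13), Slc6a6 (0.32), Slc18a2 (0.58), Slc4a2 (1.43), Slc4a7 (0.93), Slc20a1 (0.46), Slc25a31 (1.42), Slc35a5 (1.23), Slc15a2 (1.16), Slc26a8 (1.31), Slc22a17 (0.076), Slc25a25 (0.46), Slc35a3 (1.13), Slc35g1 (0.65), Slc25a11 (1.34), Slc35e4 (1.21) and Slc4a11 (0.98). At P6.5 over P2.5 it turned for Slc13a4 (1.14), Slc27a2 (1.23), Slc35a5 (1.83), Slc15a2 (1.08), Slc25a13 (1.36), Slc25a27 (1.36), Slc26a8 (1.39), Slc9b1 (1.34), Slc18a1 (1.08), Slc4a11 (1.08) and Slc9a7 (1.38), as the shift of all genes on that scale sets. At the first step it turned with E17.5 libraries 1 to 10 for Slc5a3 (0.27), Slc15a2 (1.98) and Slc35e4 (2.00), with 11 to 22 for Slc6a4 (1.23) and Slc9a5 (1.64), from medians over cells for Slc35a5 (0.10) and Slc15a2 (0.40), and without cells with transcripts of other, non-blood cell types for Slc15a2 (1.72) and Slc35e4 (2.32); the cause was not tested. Of the named ratios past 2-fold, TMM kept 90.4% past 2-fold in the same direction, median-of-ratios 93.3%, FPKM 96.15% and the median over cells 90.4%. No paired analysis was possible because no test was made and replicate numbers only name cells.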

Other observations

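Counting all 22 E17.5 libraries would add 14 genes to the members and drop 4, among them Slc38a6, Slc4a11 and Slc9a5. Among those added are the glucose carriers Slc2a3 and Slc2a6, the urea carrier Slc14a1, the glutamine carrier Slc38a5 and the glucose-6-phosphate carrier Slc37a4. The zinc exporter Slc30a1, which many cells use at the plasma membrane, stayed below the limit at 4.57, 5.82 and 4.42 CPM at the 3 stages, while its relative Slc30a3 reached 329.5 CPM at P6.5.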
